A study of Mus musculus with 9 samples.

Results

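The microRNAs miR-33-5p, miR-148a-3p, miR-148b-3p, miR-152-3p and miR-185-5p were followed in small extracellular vesicles of mouse serum. They were chosen by name, as regulators of cellular cholesterol handling and the close relatives of one of them. Earlier results of these data were known when they were chosen. They make up 5 of the 1064 known microRNAs counted, and all 5 were abundant enough to be tested. Small RNA was sequenced in 9 libraries, with 3 libraries in each of 3 groups. HFD Sirt3 AKI mice ate a high fat diet and overexpressed Sirt3, a mitochondrial deacetylase, in adipose tissue. HFD WT mice were labelled wild type and ate the high fat diet, and chow WT mice were labelled wild type and ate chow. The series title speaks of male mice. The sources used here do not give their age or strain, the promoter behind the adipose overexpression, or whether animals were pooled. The library names of HFD WT carry a Sirt3 code that those of chow WT lack, so a difference of mouse line between these groups cannot be told apart from diet. The labels do not say that the 3 libraries of a group came from separate animals, so the p-values measure the spread between libraries, which may be technical.

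The high density lipoprotein receptor SR-B1 moves cholesterol between lipoproteins and cells, and the transporter ABCA1 exports it from cells. A microRNA lowers the output of messenger RNAs that pair with its seed, a short stretch near its 5′ end. miR-33 lies within the gene of SREBP2, the transcription factor that switches on cholesterol synthesis, and lowers ABCA1 in mouse and human cells. miR-148a lowers ABCA1 in mouse and human liver cells. miR-148b and miR-152 carry the same seed as miR-148a, and miR-152 is best known as a repressor of the DNA methyltransferase DNMT1. miR-185 lowers SR-B1 in liver cells. Serum vesicles come from many cell types, so a level here is neither the level in a tissue nor a measure of ABCA1 or SR-B1, which were not measured. In vesicles a lower level can come, among other ways, from fewer vesicles of one origin or from fewer copies per vesicle, and these cannot be told apart.

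The sequences show which members can pair with the same sites. RefSeq (GRCm38.p6) mature sequences were matched by name for 9 of the 10 members and opposite arms of their precursors, and those of 4 members are given 5′ to 3′ with the seed, bases 2 to 8, in capitals.
mmu-miR-33-5p: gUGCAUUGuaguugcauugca
mmu-miR-148a-3p: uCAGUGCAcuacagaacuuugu
mmu-miR-148b-3p: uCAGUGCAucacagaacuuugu
mmu-miR-152-3p: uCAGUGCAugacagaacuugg
miR-148a-3p, miR-148b-3p and miR-152-3p share the seed CAGUGCA, and no other microRNA of the table with a RefSeq sequence carries it. miR-33-5p has a seed of its own, UGCAUUG. Counting from 1 at the 5′ end, miR-148b-3p differs from miR-148a-3p by C9U and U10C, and 20 of 22 bases are the same. miR-152-3p differs from miR-148a-3p by C9U, U10G and U20G, with 18 of 21 compared bases the same. Reads of the 3 can therefore be separated only by bases outside the seed, and the sources used here do not give how many mismatches the authors' counting allowed.

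The precursors lie in different genes. In the GENCODE M21 annotation of GRCm38, Mir33 lies in an intron of Srebf2, the gene of SREBP2, on the plus strand of chromosome 15, with miR-33-5p at chr15:82198127-82198147. Mir148b lies in an intron of Copz1, a coat protein gene, with miR-148b-3p at chr15:103285185-103285206 on the plus strand. Mir152 lies in an intron of Copz2, the paralogue of Copz1, with miR-152-3p at chr11:96850439-96850459 on the plus strand. Mir148a overlaps no protein-coding gene, and miR-148a-3p lies at chr6:51269829-51269850 on the minus strand. The Mir185 precursor, chr16:18327401-18327465 on the minus strand, lies in an intron of Tango2.

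Depth differed between the groups. Library totals ran from 1729416 to 2973432 counts in HFD Sirt3 AKI, from 1953935 to 2162009 in HFD WT and from 225002 to 306974 in chow WT, so depth and diet cannot be told apart in comparisons with chow WT. HFD Sirt3 AKI replicates 2 and 3 carry one batch label and the other 7 libraries another. HFD Sirt3 AKI replicate 2 stood apart from its group, and 6 hepatocyte microRNAs summed to 9304, 31830 and 15440 normalised CPM in HFD Sirt3 AKI replicates 1, 2 and 3, against 7625 to 8036 in HFD WT and 11170 to 13960 in chow WT. The 6 did not move alike. miR-122-5p averaged 14280, 4467 and 4979 normalised CPM in HFD Sirt3 AKI, HFD WT and chow WT, and miR-192-5p 3966, 2869 and 7194. Normalised CPM are counts per 1000000 of a library total after TMM scaling (trimmed mean of M values). The choice of scaling shifts every fold change. Over the 414 microRNAs tested, the median on the log2 scale was -0.02 with TMM and 0.27 with library totals in HFD Sirt3 AKI over HFD WT. It was 0.15 with TMM and -0.57 with library totals in HFD WT over chow WT, and 0.06 and -0.36 in HFD Sirt3 AKI over chow WT. Erythroid microRNAs held 29.2 to 33.8% of the counts in HFD Sirt3 AKI, 30.5 to 32.4% in HFD WT and 20.9 to 23.8% in chow WT, and their part in the levels below was not tested. These shares include both miR-486a and miR-486b, whose counts were identical.

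miR-185-5p and miR-148b-3p were called lower in HFD Sirt3 AKI than in HFD WT vesicles, and no member was called higher. Neither passed the test with batch in the model or with only the 2 groups compared. Between the groups labelled wild type, miR-148a-3p was 2.12 times as high in HFD WT as in chow WT with TMM, and no other member passed the test. With library totals this call was lost, and diet cannot be told apart from depth or mouse line there. Across diet and genotype at once, HFD Sirt3 AKI against chow WT, miR-148a-3p was higher and miR-148b-3p, miR-152-3p and miR-185-5p were lower. miR-33-5p was scarce and passed the test in no comparison. A change counts as called at an adjusted p below 0.05 in edgeR's quasi-likelihood test with Benjamini-Hochberg adjustment over the 414 microRNAs tested, fitted to all 9 libraries, and single adjusted p-values below come from it unless another tool is named. In HFD Sirt3 AKI over HFD WT, 2 of 5 members were called lower and 0 higher, against 7.49% of all tested microRNAs called lower, 1.45% higher and 8.94% in either direction. The number called over all tested microRNAs was 37, but 1 with batch in the model and 3 with only the 2 groups compared. In HFD WT over chow WT, 1 of 5 was called higher and 0 lower, against 21.5% and 16.2%, with 37.7% called in either direction. In HFD Sirt3 AKI over chow WT, 1 was called higher and 3 lower, against 20.3% and 19.6%, with 39.9% called in either direction. The members' median log2 fold change was -0.15, -0.04 and -0.66 in the 3 comparisons, against -0.02, 0.15 and 0.06 over all tested microRNAs. These comparisons share libraries, so they are not independent of each other. With library totals the members split into 0 higher and 1 lower in HFD Sirt3 AKI over HFD WT, and into 0 higher and 3 lower in each comparison with chow WT. Over all tested microRNAs the split of 6 higher and 31 lower calls in HFD Sirt3 AKI over HFD WT turned to 36 higher and 11 lower with library totals. That of 89 higher and 67 lower in HFD WT over chow WT turned to 20 and 143, and that of 84 and 81 in HFD Sirt3 AKI over chow WT to 40 and 130.

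**Figure D1:**
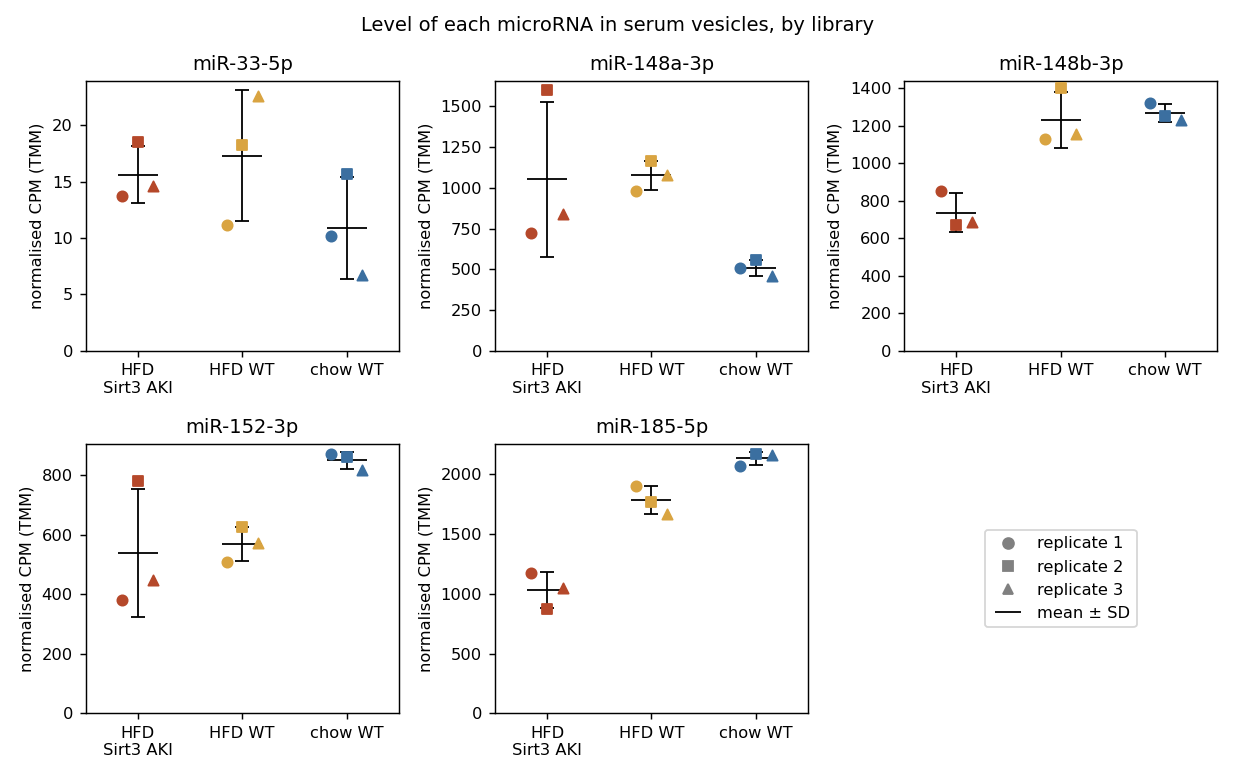
Levels of the 5 members in each library. Points are single libraries in normalised CPM (linear axis from 0), bars are group means with SD (n = 3). miR-185-5p lies lower in each HFD Sirt3 AKI library (874 to 1173) than in each HFD WT library (1673 to 1907), and miR-148a-3p lies lower in each chow WT library (457.6 to 555.5) than in each library on the high fat diet.

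miR-33-5p, the member encoded inside the SREBP2 gene, was present at low counts in every library. It had 38, 35 and 28 counts in HFD Sirt3 AKI, 20, 28 and 34 in HFD WT, and 4, 6 and 2 in chow WT. Scaled for depth these were 13.7, 18.5 and 14.7 normalised CPM in HFD Sirt3 AKI, 11.1, 18.2 and 22.6 in HFD WT, and 10.2, 15.7 and 6.68 in chow WT. The groups overlapped in every comparison, and miR-33-5p ranked between 249 and 326 among known microRNAs by counts in a library. Group means were 15.6 ± 2.55 in HFD Sirt3 AKI, 17.3 ± 5.77 in HFD WT and 10.8 ± 4.52 in chow WT (SD, n = 3). The log2 fold change was -0.15 (SE 0.35, adjusted p = 0.821) in HFD Sirt3 AKI over HFD WT. It was 0.64 (SE 0.45, adjusted p = 0.304) in HFD WT over chow WT and 0.49 (SE 0.45, adjusted p = 0.411) in HFD Sirt3 AKI over chow WT. The 2 counts of chow WT replicate 3 have an exact 95% Poisson interval of 0.242 to 7.22 counts, which covers counting error only, or 0.809 to 24.1 normalised CPM. None of these differences passed the test at this depth.

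miR-185-5p, the member that lowers SR-B1, was the most abundant of the 5 in HFD WT and in chow WT. It had 1173, 874 and 1051 normalised CPM in HFD Sirt3 AKI, 1907, 1769 and 1673 in HFD WT, and 2072, 2172 and 2164 in chow WT. The 3 groups did not overlap, with HFD Sirt3 AKI lowest and chow WT highest. Its rank among known microRNAs by counts was 71 to 80 in HFD Sirt3 AKI, 60 to 61 in HFD WT and 48 to 53 in chow WT. The group means were 1033 ± 151, 1783 ± 118 and 2136 ± 55.7 normalised CPM in HFD Sirt3 AKI, HFD WT and chow WT (SD, n = 3). It fell by 0.79 on the log2 scale in HFD Sirt3 AKI against HFD WT (SE 0.13, adjusted p = 0.00473), to 0.579 of the HFD WT level. The log2 fold change in HFD Sirt3 AKI over chow WT was -1.05 (SE 0.13, adjusted p = 9.72e-05). Between HFD WT and chow WT it was -0.26 (SE 0.13, adjusted p = 0.140), short of the threshold although the libraries did not overlap. With library totals in place of TMM this last value became -0.99 and passed the test (adjusted p = 0.000112), and the change in HFD Sirt3 AKI over HFD WT became -0.49 (adjusted p = 0.0281). With batch in the model, HFD Sirt3 AKI over HFD WT stood at -0.60 (adjusted p = 0.188), and within the larger batch, which holds 1 HFD Sirt3 AKI library, at -0.47 (adjusted p = 0.0860). In a fit of only the HFD Sirt3 AKI and HFD WT libraries it was -0.66 (adjusted p = 0.0603).

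miR-148b-3p, the first of the shared-seed members, was the other one called lower in HFD Sirt3 AKI than in HFD WT. It had 854.3, 668.8 and 688.1 normalised CPM in HFD Sirt3 AKI, 1131, 1401 and 1158 in HFD WT, and 1320, 1252 and 1232 in chow WT. Each HFD Sirt3 AKI library was below every library of the other groups, while HFD WT and chow WT overlapped. The log2 fold change was -0.74 (SE 0.14, adjusted p = 0.00850) in HFD Sirt3 AKI over HFD WT, which is 0.599 of the HFD WT level. It was -0.78 (SE 0.14, adjusted p = 0.00121) in HFD Sirt3 AKI over chow WT. Between HFD WT and chow WT it was -0.04 (SE 0.14, adjusted p = 0.840), with means of 1230 ± 149 and 1268 ± 46.2 (SD, n = 3) that differed by less than their spread. This last value depends on the scaling: with library totals it was -0.78 (adjusted p = 0.000677). The call between HFD Sirt3 AKI and HFD WT was lost with library totals (-0.43, adjusted p = 0.0549), without HFD WT replicate 2 (-0.62, adjusted p = 0.0506) and without HFD Sirt3 AKI replicate 3 (-0.68, adjusted p = 0.0507). It was also lost with batch in the model (-0.53, adjusted p = 0.229), within the larger batch (-0.38, adjusted p = 0.199) and with only the 2 groups compared (-0.61, adjusted p = 0.0793). Within the larger batch the call in HFD Sirt3 AKI over chow WT was lost as well (-0.37, adjusted p = 0.0776).

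miR-148a-3p, the shared-seed member known for lowering ABCA1 in liver cells, was the one that was higher on the high fat diet. It had 720.7, 1599 and 840.4 normalised CPM in HFD Sirt3 AKI, 983.5, 1164 and 1081 in HFD WT, and 509.8, 555.5 and 457.6 in chow WT. Every library on the high fat diet was above every chow WT library, and the HFD Sirt3 AKI and HFD WT libraries overlapped. The log2 fold change was 1.08 in HFD WT over chow WT (SE 0.26, adjusted p = 0.00765). It was 1.05 in HFD Sirt3 AKI over chow WT (SE 0.26, adjusted p = 0.00801). Between HFD Sirt3 AKI and HFD WT it was -0.03 (SE 0.25, adjusted p = 0.948), with means of 1053 ± 477 and 1076 ± 90.5 (SD, n = 3). With library totals the difference between HFD WT and chow WT was 0.35 and missed the threshold (adjusted p = 0.423), and that between HFD Sirt3 AKI and chow WT was 0.68 (adjusted p = 0.113), which with batch in the model was 0.50 (adjusted p = 0.200).

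HFD Sirt3 AKI replicate 2 set the spread of miR-148a-3p and miR-152-3p. Its level was 2.05 times the mean of replicates 1 and 3 for miR-148a-3p and 1.89 times for miR-152-3p, against 0.867 for miR-148b-3p and 0.786 for miR-185-5p. The same library had the highest hepatocyte sum, given above. miR-122-5p, the most abundant microRNA of hepatocytes, stood at 25940 normalised CPM in it, against 5676 and 11210 in HFD Sirt3 AKI replicates 1 and 3. The part of hepatocyte microRNAs in these levels was not tested. Without replicate 2, both microRNAs were called lower in HFD Sirt3 AKI than in HFD WT, miR-148a-3p at -0.43 (adjusted p = 0.0405) and miR-152-3p at -0.42 (adjusted p = 0.0475). miR-148b-3p and miR-185-5p stayed called without it, at -0.63 and -0.64.

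miR-152-3p, the least abundant of the shared-seed members in HFD Sirt3 AKI and HFD WT, was highest on chow. It had 380.3, 782.5 and 449.5 normalised CPM in HFD Sirt3 AKI, 509.8, 627.1 and 571.2 in HFD WT, and 871.7, 860.6 and 818.3 in chow WT. Each chow WT library was above every other library. The log2 fold change was -0.66 (SE 0.23, adjusted p = 0.0439) in HFD Sirt3 AKI over chow WT, a call that was lost in 8 of the 9 fits that left out 1 library, with values from -0.89 to -0.45. For HFD WT over chow WT it was -0.58 (SE 0.23, adjusted p = 0.0767), short of the threshold. It passed with DESeq2 size factors (-0.69, adjusted p = 0.0311), with library totals (-1.31, adjusted p = 0.00446), within the larger batch (-0.52, adjusted p = 0.00116) and without HFD Sirt3 AKI replicate 1 or 2 (adjusted p = 0.0281 and 0.00485). For HFD Sirt3 AKI over HFD WT it was -0.08 (SE 0.23, adjusted p = 0.836).

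**Figure D2:**
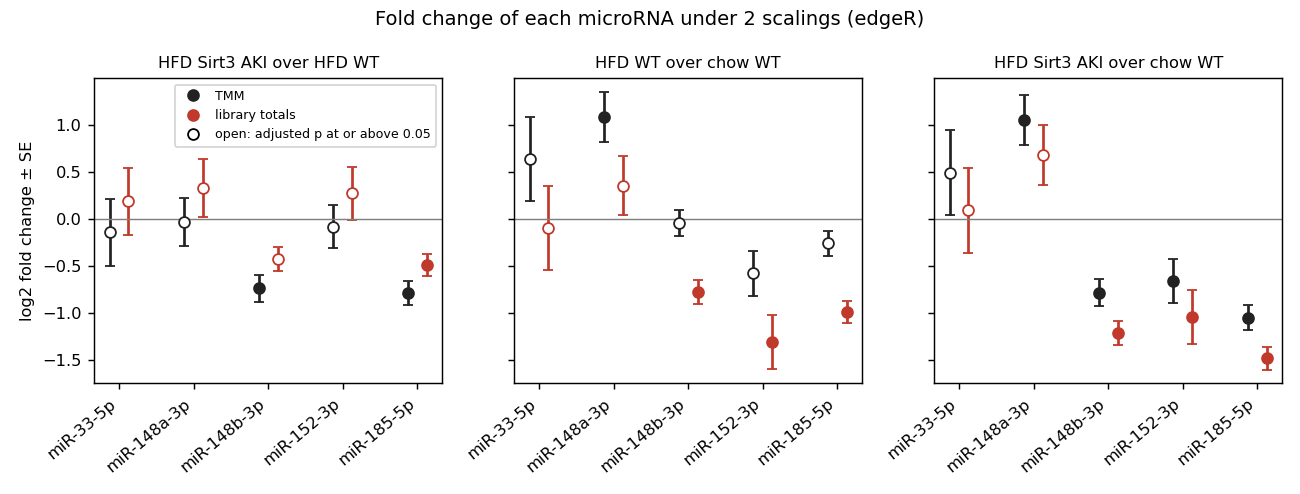
Log2 fold changes of the 5 members in the 3 comparisons, with SE, under TMM scaling and under library totals. Filled points passed the test. Only the distances between members within a comparison are free of the scaling: miR-148a-3p lies above miR-152-3p and miR-185-5p in each comparison with chow WT under both scalings.

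Ratios of members within a library need no scaling between libraries, and that of miR-148a-3p to miR-152-3p separated the diets. The log2 ratio of miR-148a-3p to miR-152-3p was 0.95 ± 0.07 in HFD Sirt3 AKI, 0.92 ± 0.03 in HFD WT and -0.75 ± 0.11 in chow WT (SD, n = 3). miR-148a-3p thus exceeded miR-152-3p in all 6 libraries on the high fat diet and was below it in all 3 on chow. The difference was 1.67 between HFD WT and chow WT and 1.70 between HFD Sirt3 AKI and chow WT, each with p = 0.1 in a two-sided exact permutation test, the smallest p that 3 libraries against 3 can give. Between HFD Sirt3 AKI and HFD WT it was 0.03 (exact permutation p = 0.6), and it stayed near this value without HFD Sirt3 AKI replicate 2, at -0.01. Both microRNAs were high in that replicate, and their log2 ratio there was 1.03, with 0.89 to 0.95 in the other libraries on the high fat diet.

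The ratio of miR-148a-3p to miR-148b-3p separated the diets less evenly. It was 0.43 ± 0.76 on the log2 scale in HFD Sirt3 AKI, -0.19 ± 0.08 in HFD WT and -1.32 ± 0.14 in chow WT (SD, n = 3). The HFD WT and chow WT libraries differed by 1.13 without overlap (exact permutation p = 0.1), and HFD Sirt3 AKI and HFD WT overlapped (difference 0.62, exact permutation p = 0.3). The ratio of miR-148b-3p to miR-185-5p, the pair that fell in HFD Sirt3 AKI, was -0.48 ± 0.12 in HFD Sirt3 AKI, -0.54 ± 0.21 in HFD WT and -0.75 ± 0.09 in chow WT. HFD Sirt3 AKI and HFD WT differed by 0.06 in it (exact permutation p = 0.7). A total of 33 comparisons of ratios and shares were made over 11 quantities, 17 of them without overlap between groups, and the smallest adjusted p was 0.194. How often ratios of other tested microRNAs separate the groups was not measured, so the separation cannot be called particular to the members.

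**Figure D3:**
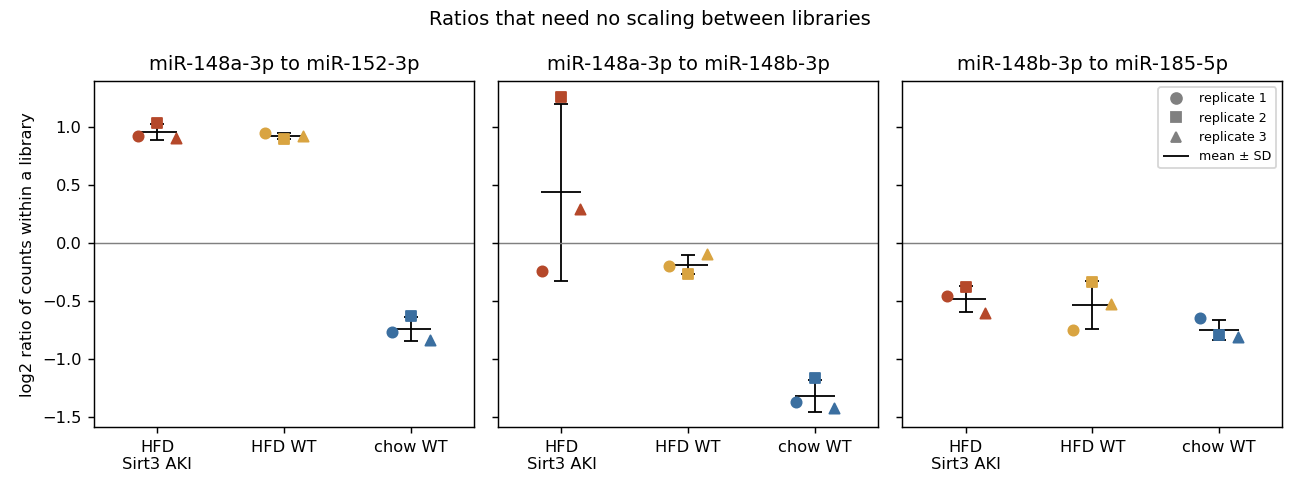
Log2 ratios between members within each library. Points are libraries, and bars are group means with SD (n = 3 per group). The ratio of miR-148a-3p to miR-152-3p lies near 0.95 and 0.92 in the HFD Sirt3 AKI and HFD WT groups and near -0.75 in chow WT, and for this ratio every library on the high fat diet lies above 0.

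The makeup of the seed family followed the same pattern. Of the counts of the 3 shared-seed members, miR-148a-3p held 36.9, 52.4 and 42.5% in HFD Sirt3 AKI replicates 1, 2 and 3, 37.5, 36.5 and 38.5% in HFD WT, and 18.9, 20.8 and 18.2% in chow WT. All 6 libraries on the high fat diet were above all 3 on chow. The 95% binomial interval (Wilson) was widest in chow WT replicate 3, 15.6 to 21.2% of 751 counts. The share differed by 18.2 percentage points between HFD WT and chow WT (exact permutation p = 0.1) and by 6.46 between HFD Sirt3 AKI and HFD WT (exact permutation p = 0.3). miR-152-3p held 22.6 ± 3.10% in HFD Sirt3 AKI, 19.8 ± 0.475% in HFD WT and 32.4 ± 0.208% in chow WT, and miR-148b-3p held 33.5 ± 10.9%, 42.7 ± 1.37% and 48.3 ± 1.21% in the same groups (SD, n = 3). The summed level of the seed family was 2328 ± 626 normalised CPM in HFD Sirt3 AKI, 2875 ± 290 in HFD WT and 2626 ± 104 in chow WT (SD, n = 3). These group means differ by no more than the spread within HFD Sirt3 AKI, but the order depends on the scaling. With library totals the sum was 2318 ± 882 TPM in HFD Sirt3 AKI, 2256 ± 139.7 in HFD WT and 3427 ± 79.0 in chow WT (SD, n = 3), and chow WT (3338 to 3490) then lay above HFD WT (2168 to 2417) without overlap.

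**Figure D4:**
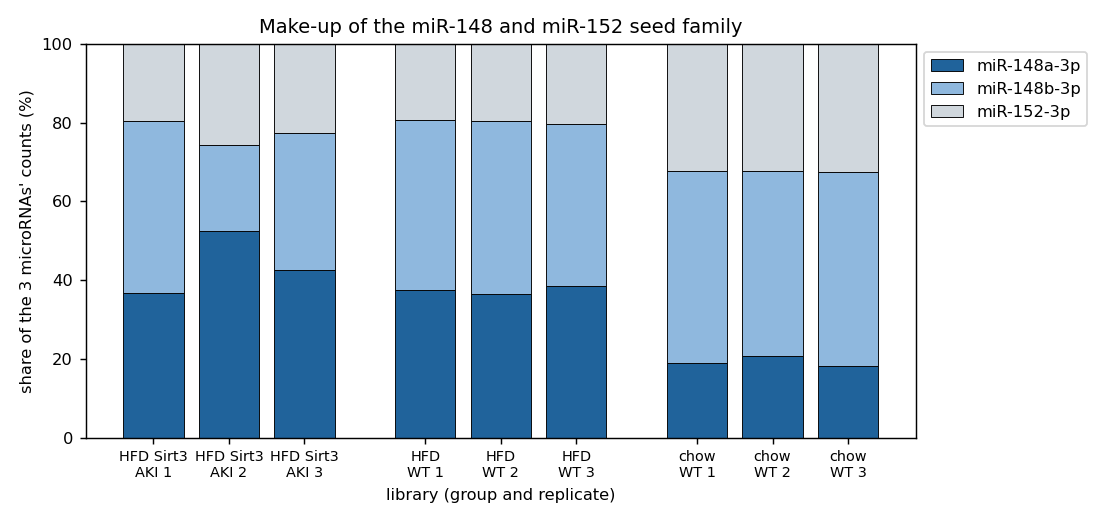
Share of each shared-seed member in the summed counts of miR-148a-3p, miR-148b-3p and miR-152-3p, in percent, for each of the 9 libraries. miR-148a-3p holds 36.5% or more in every library on the high fat diet and at most 20.8% in chow WT.

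The opposite arms of the same precursors were much scarcer. A precursor hairpin yields 2 mature strands. The Mir152 hairpin is given because both of its strands were called lower in HFD Sirt3 AKI than in chow WT. The call of miR-152-3p was kept in only 1 of the 9 fits without 1 library. The hairpin lies at chr11:96850393-96850465 on the plus strand of GRCm38.p6, with miR-152-5p (first) and miR-152-3p (second) in capitals.
Mir152: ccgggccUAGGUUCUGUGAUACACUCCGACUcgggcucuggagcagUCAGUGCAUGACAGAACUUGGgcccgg
miR-152-5p averaged 11.6 ± 5.12 normalised CPM in HFD Sirt3 AKI, 7.43 ± 2.24 in HFD WT and 31.1 ± 6.86 in chow WT (SD, n = 3), on 73, 36 and 33 counts in all in these groups. It was lower in HFD WT than in chow WT by a log2 fold change of -2.04 (SE 0.44, adjusted p = 0.00431) and in HFD Sirt3 AKI than in chow WT by -1.42 (SE 0.42, adjusted p = 0.0205). The second of these calls was lost in 4 of the 9 fits without 1 library, those without chow WT replicate 1 or 3 and without HFD Sirt3 AKI replicate 1 or 3 (-1.34 to -1.18). The log2 ratio of miR-152-5p to miR-152-3p was -5.52 ± 0.05 in HFD Sirt3 AKI, -6.24 ± 0.38 in HFD WT and -4.73 ± 0.36 in chow WT, with no overlap between any of the groups (exact permutation p = 0.1 each, adjusted p = 0.194).

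The other arms passed no test. miR-148a-5p had 91, 40 and 9 counts in all in HFD Sirt3 AKI, HFD WT and chow WT, and its log2 fold change was 0.83 (SE 0.43, adjusted p = 0.255) in HFD Sirt3 AKI over HFD WT. Between HFD WT and chow WT it was -0.04 (SE 0.57, adjusted p = 0.977), where miR-148a-3p of the same hairpin rose. miR-185-3p averaged 26.4 ± 4.88 normalised CPM in HFD Sirt3 AKI, 33.0 ± 1.51 in HFD WT and 34.5 ± 15.4 in chow WT, and its log2 fold change in HFD Sirt3 AKI over HFD WT was -0.32 (SE 0.30, adjusted p = 0.534). miR-148b-5p was at -0.45 (SE 0.46, adjusted p = 0.593) in that comparison. miR-33-3p had 1, 3 and 0 counts in HFD Sirt3 AKI, HFD WT and chow WT and was too scarce to test.

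Other microRNAs reported to lower ABCA1 or SR-B1 were set beside the members. Of 23 listed, 21 were in the table and all 21 were tested. For HFD Sirt3 AKI over HFD WT, 5 were called lower and 0 higher, against 7.49% and 1.45% of all tested microRNAs, with a median log2 fold change of -0.39. Many blood cell microRNAs moved the same way, but not all. Of 7 erythroid ones (miR-144-3p is on both lists), 5 were called lower and 0 higher, with a median of -0.50. The 3p arms of miR-486a and miR-486b, both among these calls, had identical counts, as had their 5p arms. Of 7 leukocyte and platelet ones, 3 were called lower and 0 higher, with a median of -0.40. The calls were miR-142a-3p and both arms of miR-126a, while miR-150-5p and miR-342-3p lay above 0 (0.24 and 0.19, not called). Summed, with miR-486a and miR-486b both counted, the erythroid ones stood at 266900 to 373100 normalised CPM in HFD Sirt3 AKI and 375000 to 427300 in HFD WT. The leukocyte and platelet ones stood at 52180 to 58940 and 70250 to 73960. As shares of the library totals the groups overlapped. The erythroid ones held 29.2 to 33.8% in HFD Sirt3 AKI and 30.5 to 32.4% in HFD WT, and the leukocyte and platelet ones 5.14 to 5.71% and 5.39 to 5.84%. The part of blood cell microRNAs in the result was not tested. miR-20a-5p (-1.29, SE 0.17, adjusted p = 0.00318), miR-17-5p (-1.05, SE 0.18, adjusted p = 0.00473), miR-93-5p (-0.84, SE 0.15, adjusted p = 0.00559) and miR-20b-5p (-0.71, SE 0.15, adjusted p = 0.0140) share a seed family, the miR-17 family, and so do not stand for separate regulators. The call of miR-20b-5p was lost in 3 of the 9 fits without 1 library, those without HFD WT replicate 2 or 3 or HFD Sirt3 AKI replicate 3 (adjusted p 0.0565 to 0.0954), and with library totals (-0.41, adjusted p = 0.0822). miR-144-3p, an ABCA1 regulator that is also abundant in red cells, was called too (-1.19, SE 0.18, adjusted p = 0.00432). With library totals the list split into 2 higher and 4 lower, and with batch in the model 0 were called.

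On the high fat diet the list did not move one way. In HFD WT over chow WT, 6 were called higher and 2 lower, 8 of 21 in all and so near the 37.7% of all tested microRNAs called in either direction, with a median of 0.23, and this split turned to 1 higher and 11 lower with library totals. miR-223-3p, a myeloid microRNA that lowers SR-B1, rose by 1.59 on the log2 scale (SE 0.14, adjusted p = 8.11e-06), with 5709 ± 581 normalised CPM in HFD WT and 1891 ± 119 in chow WT (SD, n = 3). miR-145a-5p, an ABCA1 regulator abundant in smooth muscle, fell by 2.51 (SE 0.24, adjusted p = 1.52e-05), to 396.3 ± 149 normalised CPM in HFD WT, against 2260 ± 289 in chow WT. miR-128-3p (0.72, SE 0.10, adjusted p = 0.000209), miR-93-5p (0.89, SE 0.15, adjusted p = 0.000675) and miR-125a-5p (0.75, SE 0.14, adjusted p = 0.00151) were higher with TMM, but with library totals stood at 0.00 or below 0.16 and passed no test. miR-455-5p, which like miR-125a-5p lowers SR-B1 in steroid-making cells of the rat and mouse, fell by 1.29 (SE 0.33, adjusted p = 0.00967). In HFD Sirt3 AKI over chow WT, 3 were called higher and 9 lower, against 20.3% and 19.6% of all tested microRNAs, among them the same miR-223-3p (1.40, adjusted p = 1.54e-05) and miR-145a-5p (-2.11, adjusted p = 4.13e-05). This split became 3 and 14 with library totals, 5 and 4 without a filter, 6 and 4 in the larger batch alone and 6 and 6 without HFD Sirt3 AKI replicate 2.

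**Figure D5:**
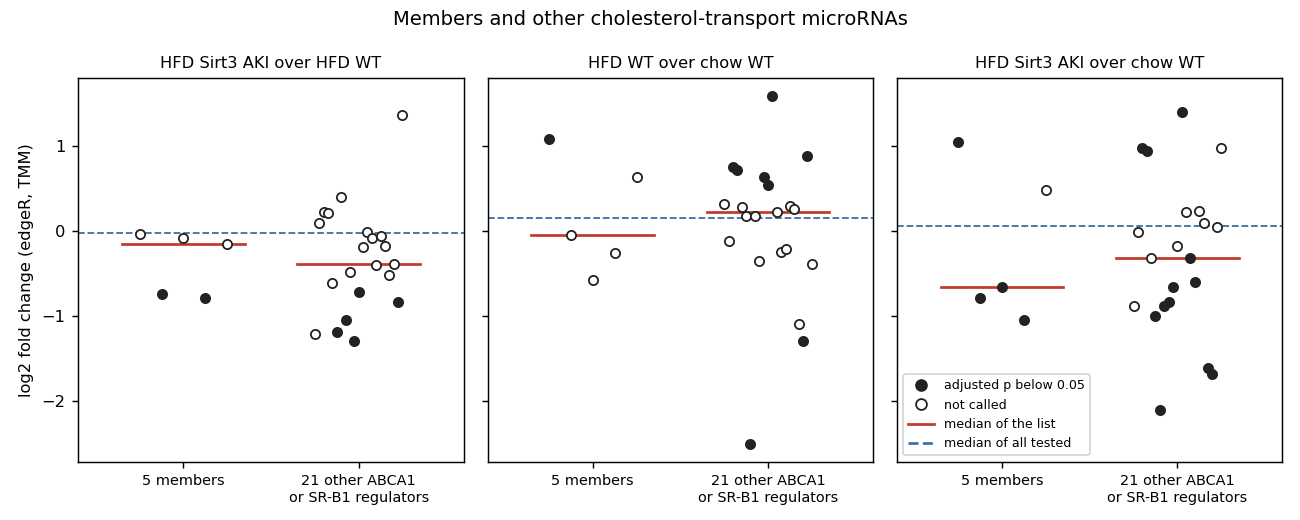
Log2 fold changes (TMM) of the 5 members and of the 21 other ABCA1 and SR-B1 regulators in the 3 comparisons. Each point is 1 microRNA, filled points passed the test, solid lines are list medians and dashed lines the median of all tested microRNAs. In HFD Sirt3 AKI over HFD WT the called members and the 5 called other regulators lie below 0.

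Among 6 microRNAs known to act on sterol or lipoprotein synthesis, 5 were tested. miR-122-5p, which supports hepatic lipid synthesis, was called higher in HFD Sirt3 AKI than in HFD WT (1.68, SE 0.44, adjusted p = 0.0412), with 14280 ± 10500 and 4467 ± 308 normalised CPM (SD, n = 3). This call was lost in 6 of the 9 fits without 1 library (adjusted p 0.0568 to 0.147), those without chow WT replicate 1 or 2, any HFD WT replicate or HFD Sirt3 AKI replicate 3, and the log2 fold change within the larger batch was 0.48 (adjusted p = 0.199). miR-30c-5p, which lowers the lipoprotein assembly protein MTP, was lower in HFD WT than in chow WT (-0.76, SE 0.17, adjusted p = 0.00507). For HFD Sirt3 AKI over chow WT, miR-122-5p (1.52, adjusted p = 0.0172) and miR-183-5p (1.29, adjusted p = 0.0127) were higher and miR-30c-5p (-0.93, adjusted p = 0.00136) was lower. Both calls of a higher level were lost with library totals (1.17 for miR-122-5p and 0.92 for miR-183-5p, adjusted p = 0.0885 and 0.0949), limma at either pseudocount and batch in the model (0.19 and 0.44). That of miR-122-5p was also lost with only the 2 groups compared, in the larger batch alone (0.39) and without chow WT replicate 1 or 3 (adjusted p = 0.0608 and 0.0636).

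The known microRNAs whose log2 levels followed each member most closely over the 9 libraries differed between members. For miR-185-5p these were let-7f-5p (r = 0.976, rho = 0.967) and miR-186-5p (r = 0.974, rho = 0.867), and for miR-148b-3p the same pair, miR-186-5p (r = 0.955, rho = 0.817) and let-7f-5p (r = 0.950, rho = 0.767). For miR-148a-3p they were miR-199a-3p and miR-199b-3p, whose counts were identical (r = 0.949, rho = 0.933). For miR-152-3p they were miR-101c and miR-101a-3p (r = 0.978, rho = 0.967), whose counts differed by 2 in all. For miR-33-5p they were miR-376b-3p (r = 0.922, rho = 0.867) and miR-1983 (r = 0.823, rho = 0.433), both scarce as well. These values describe 9 libraries that share their groups, depth and batch, and no test was made.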

How the data were processed

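Small RNA of serum small extracellular vesicles was sequenced in 9 libraries, and vesicles were precipitated with a commercial reagent, per the labels' protocols. Read counts (whole numbers for each mature microRNA) and TPM are the authors' own, and each TPM equalled the deposited count per 1000000 of its library's total within 5.00e-05. Per the submitters' processing notes, Bowtie 0.12.2 and mm8 were used, in roles they do not state. The sources used here give no trimming, microRNA reference or mismatch settings.

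Counts of known and predicted microRNAs (1169) were filtered with filterByExpr (minimum count 10), leaving 414, and the rest held 0.0543% of counts. They were scaled by TMM and fitted by edgeR 4.0.16 (R 4.3.3) quasi-likelihood with group means over 9 libraries, with Benjamini-Hochberg adjustment. Ratios within a library (0.5 added to each count) and shares (nothing added) were tested by exact permutation, two-sided, in R. The binomial intervals of the shares were computed with SciPy 1.17.1. Alternatives were DESeq2 1.42.0 and its size factors, library totals, no filter, limma 3.58.1 on log2(TPM + 1) or log2(TPM + 10), only the 2 groups compared, batch in the model, the larger batch alone, known microRNAs only, identical microRNAs counted as 1, the replicate number as a block, another ratio pseudocount (1) and leaving out each library. The summed level of the seed family with library totals was added after seeing the data. The code of the edgeR step was tested on simulated counts with the same spread for every microRNA and no batch. That test does not bear on the batch or the scaling of these data. Libraries of a group differed by more than sampling noise (chi-square per degree of freedom 6.26 to 453.5). Members and lists were chosen with earlier results of these data known, and 1 listed regulator, removed after the values were seen, is not reported here. The microRNAs named are the members, their opposite arms, listed regulators that passed (at most 6 per list and comparison, by adjusted p), and the 2 known microRNAs most correlated with each member. Some cell type markers are named beside them. Sequences are from RefSeq (GRCm38.p6).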

Additional observations from a re-analysis of the deposited data

How the results depend on the processing

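Of 1473 recomputed values, 1266 were kept, 80 lost a call, 20 gained one, 67 reversed and 40 moved. A fold change was kept if its direction and side of the threshold were the same, and a count if it stayed within 1.5 times. Ratios and shares were judged by direction alone, with no threshold, and summed levels by whether they stayed within the SD. miR-33-5p rests on 2 to 6 counts per chow WT library and the tested opposite arms on 1 to 20, which limits their precision. Batch limits HFD Sirt3 AKI over HFD WT, since 2 of its 3 HFD Sirt3 AKI libraries form a batch of their own, and 1 library remains without them, assumed to vary like the other groups. The cause of the changes below was not tested. Known microRNAs alone, or identical ones counted as 1, changed no call of a member. The numbers called became 38 and 36 in HFD Sirt3 AKI over HFD WT, against 37. They became 149 and 150 in HFD WT over chow WT, against 156, and 157 and 159 in HFD Sirt3 AKI over chow WT, against 165. The blood cell lists were not recomputed in these fits.

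In HFD Sirt3 AKI over HFD WT, 37 microRNAs were called, against 24 with DESeq2 size factors, 3 with only the 2 groups compared, 1 with batch in the model and 23 in the larger batch alone. Library totals, limma on log2(TPM + 1) and limma on log2(TPM + 10) gave log2 fold changes of 0.187, 0.194 and 0.117 for miR-33-5p, 0.328, 0.192 and 0.191 for miR-148a-3p, -0.428, -0.431 and -0.426 for miR-148b-3p, and 0.271, 0.160 and 0.159 for miR-152-3p. miR-148a-3p was at 0.0607 with DESeq2 size factors and with DESeq2, and at 0.114 with only the 2 groups, and miR-152-3p at 0.00908, 0.00902 and 0.0592 under the same settings. With only the 2 groups, batch in the model and the larger batch alone, miR-148b-3p was at -0.605, -0.526 and -0.384 and miR-185-5p at -0.662, -0.604 and -0.465. miR-148a-5p was at -0.0490 with batch in the model, and miR-148b-5p at 0.0510 in the larger batch. The other ABCA1 and SR-B1 regulators had 1 call with only the 2 groups and 0 with batch in the model. The sterol list had 4 calls without a filter, 3 with DESeq2, and 0 with limma at either pseudocount, only the 2 groups, batch in the model or the larger batch.

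In HFD WT over chow WT, library totals, limma on log2(TPM + 1) and limma on log2(TPM + 10) gave -0.0971, -0.0309 and -0.0259 for miR-33-5p, 0.350, 0.353 and 0.349 for miR-148a-3p, -0.778, -0.781 and -0.775 for miR-148b-3p, -1.31, -1.31 and -1.30 for miR-152-3p, -0.989, -0.994 and -0.989 for miR-185-5p, -0.376, -0.0448 and -0.134 for miR-148b-5p, and -0.00479, -0.00567 and -0.00565 for miR-128-3p. miR-152-3p gained its call at -0.691 with DESeq2 size factors and with DESeq2, -0.656 with only the 2 groups, -0.579 with batch in the model and -0.521 in the larger batch, and miR-185-5p at -0.330 with only the 2 groups. Without a filter, miR-148b-3p was at 0.163, miR-148a-5p at 0.172 and miR-185-3p at 0.138. In the larger batch, miR-148b-3p was at 0.0138 and miR-148a-5p at 0.0295. The other ABCA1 and SR-B1 regulators had 13 calls with limma at either pseudocount.

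For HFD Sirt3 AKI over chow WT, miR-148a-3p was at 0.678 with library totals, 0.545 and 0.540 with limma on log2(TPM + 1) and log2(TPM + 10), and 0.504 with batch in the model. miR-148b-3p was at -0.371 in the larger batch. miR-152-3p was at -0.430 without a filter and -0.683 with only the 2 groups, and miR-152-5p at -1.19 without a filter. miR-148a-5p was at -0.0820 with batch in the model, and miR-148b-5p at 0.148 without a filter, 0.269 with batch in the model and 0.471 in the larger batch. The sterol list had 1 call with library totals, limma at either pseudocount or batch in the model, and 5 without a filter or with DESeq2.

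In the larger batch alone, the difference in log2 ratio of miR-148a-3p to miR-148b-3p was -0.0555 and of miR-148b-3p to miR-152-3p 0.0575 in HFD Sirt3 AKI over HFD WT, and in HFD Sirt3 AKI over chow WT those of miR-148b-3p to miR-152-3p and miR-152-3p to miR-185-5p were 0.591 and -0.297. The share of miR-148a-3p in its seed family was there -0.607 percentage points in HFD Sirt3 AKI over HFD WT.

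Leaving out 1 library at a time, the number called in HFD Sirt3 AKI over HFD WT ran from 13 (without HFD WT replicate 3) to 102 (without HFD Sirt3 AKI replicate 1). Log2 fold changes in that comparison ran from -0.394 to 0.105 for miR-33-5p, -0.431 to 0.186 for miR-148a-3p, -0.849 to -0.622 for miR-148b-3p and -0.424 to 0.12 for miR-152-3p, the other ABCA1 and SR-B1 regulators had 4 to 8 calls (8 without HFD Sirt3 AKI replicate 1), and the sterol list had 0 to 4 calls. For HFD WT over chow WT they ran from -0.139 to 0.0718 for miR-148b-3p, -0.645 to -0.461 for miR-152-3p, -0.281 to 0.152 for miR-148a-5p, -0.130 to 0.800 for miR-148b-5p and -0.278 to 0.374 for miR-185-3p, and the sterol list had 1 to 2 calls. For HFD Sirt3 AKI over chow WT they ran from -0.886 to -0.448 for miR-152-3p, -1.68 to -1.18 for miR-152-5p, -0.577 to 0.363 for miR-148b-5p and -0.589 to 0.0527 for miR-185-3p, and the sterol list had 2 to 5 calls. Differences in log2 ratio ran from -0.00775 to 0.0566 for miR-148a-3p to miR-152-3p and -0.0516 to 0.157 for miR-148b-3p to miR-185-5p in HFD Sirt3 AKI over HFD WT, from -0.205 to 1.04 for miR-148b-5p to miR-148b-3p in HFD WT over chow WT, and from -0.382 to 0.315 for miR-148b-3p to miR-152-3p and -0.0967 to 0.636 for miR-152-3p to miR-185-5p in HFD Sirt3 AKI over chow WT.

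The labels do not say that replicate numbers pair the samples. Deviations of same-numbered libraries correlated at -0.0633 to 0.165, and not every library correlated best with its own number. With 3 libraries per group these values cannot settle whether the samples were paired. With a replicate block, miR-152-3p in HFD WT over chow WT was at -0.592 and gained a call (adjusted p = 0.0407), no other member changed its call, and 31 microRNAs were called in HFD Sirt3 AKI over HFD WT.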
